A study of Arabidopsis thaliana with 9 samples.

Results

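RNA-seq counts of *bdr1,2,3* triple mutant seedlings were compared with those of wild type, taking the 6 libraries of these 2 genotypes by their column names from a count table of 9 libraries. Wild type was the accession Col-0. The *bdr1,2,3* plants are a cross of 3 T-DNA insertion mutants in that accession, SALK_142108C in *BDR1*, CS852350 in *BDR2* and SALK_059905 in *BDR3*, so the mutant is a single line with 1 allele per gene. The other 3 libraries came from an *fpa* single mutant (*fpa-7*), which lacks a regulator of RNA 3′ end formation and of flowering, and they serve here for a direct contrast with *bdr1,2,3*. All seedlings were 8 days old when harvested whole, after growth on Murashige and Skoog (MS) plates with 16 h of light and 8 h of darkness. All had also gone through a cold treatment (stratification). The paper describes the wild-type and *bdr1,2,3* libraries as biological triplicates, though no label ties the 3 libraries of a genotype to separate plants or plates. The p-values measure the spread between these libraries, part of which may be technical. Of 33602 gene identifiers, 20413 passed a filter on low counts and were tested, and the other 13189 were not.

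*BDR* genes encode nuclear proteins that combine a SPOC domain with the central domain of the elongation factor TFIIS, an architecture that in yeast is found in a protein that slows RNA polymerase II. An Arabidopsis seedling of this age lives from its own photosynthesis, takes up mineral ions through the root, still holds *FLC* and its relatives as brakes on flowering, and makes glucosinolates, the sulfur-rich defense compounds of the cabbage family. These functions were read from the same counts with 64 lists of genes, and another 10 lists were drawn up after the called genes had been seen. The counts of those 10 lists are a description, and the lists are named as such where they appear.

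The libraries held 8676610 to 26861793 counts, and the 10 most abundant genes took 5.25% to 6.28% of the counts in 8 of the 9 libraries. Wild-type replicate 12 stood apart. It was the smallest library, its 10 most abundant genes took 8.49% of its counts, its TMM scaling factor was 0.813 against 0.997 to 1.07 in the others, and it lay farthest from the other wild-type libraries. Results that it decides are therefore given with and without it. Levels are given as CPM, counts scaled to a common library size, after TMM scaling, in the order of replicates 1, 5 and 12 for wild type, 2, 4 and 7 for *bdr1,2,3* and 3, 6 and 8 for *fpa*. A log2 fold change is given ± its standard error, and every adjusted p is edgeR's, from the quasi-likelihood F-test, adjusted over all genes tested by the Benjamini-Hochberg method. A gene is called higher or lower where the adjusted p was under 0.05.

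The disrupted genes were read first. *BDR1* (AT5G25520) stood at 42, 41 and 29.1 CPM in wild type and 1.03, 1.95 and 0.894 CPM in *bdr1,2,3* (log2 fold change -4.81 ± 0.25, adjusted p = 3.56e-07). *BDR2* (AT5G11430) stood at 19.4, 18.8 and 14.3 CPM in wild type and 9.35, 11.3 and 8.73 CPM in *bdr1,2,3* (log2 fold change -0.85 ± 0.18, adjusted p = 0.0177). *BDR3* (AT2G25640) stood at 11.5, 11.6 and 6.24 CPM in wild type and 6.13, 8.08 and 3.23 CPM in *bdr1,2,3* (log2 fold change -0.76 ± 0.29, adjusted p = 0.226), and its 2 groups overlapped. Counts over a whole gene do not show whether a transcript crosses the insertion, so the remaining counts are no measure of intact mRNA.

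In *bdr1,2,3* 384 genes were lower than in wild type, 1.88% of the genes tested, and 123 were higher, 0.603%. Both directions together make 2.48%. These shares are the background for the counts of called list members given below. The median fold of the called genes was 2.45 among those higher and 2.34 among those lower, and 85 of the 123 and 243 of the 384 changed by more than 2-fold. The median log2 fold change over all genes tested was 0.01. Without wild-type replicate 12, 188 genes were higher and 468 lower, among them 110 of the 123 and 364 of the 384.

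The clearest group among the higher genes made the aliphatic glucosinolates, the methionine-derived members of this class of defense compounds. Of 17 pathway genes tested, 11 rose, and the median log2 fold change over the 17 was 1.43. In 16 of the 17 all *bdr1,2,3* libraries lay above all wild-type libraries, which held for 9.45% of all genes tested. Seedlings were harvested whole, so fewer cells of a type and less RNA per cell cannot be told apart, here or in any group below.

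The pathway begins with side-chain elongation of methionine. *BCAT4*, the aminotransferase that takes the amino group off methionine, stood at 10.04, 10.5 and 18 CPM in wild type and 32.1, 28.2 and 40.4 CPM in *bdr1,2,3* (log2 fold change 1.43 ± 0.28, adjusted p = 0.0135). *MAM1*, the synthase that condenses the keto acid with acetyl-CoA, stood at 18.8, 15.9 and 18.3 CPM in wild type and 84.5, 80.9 and 81.6 CPM in *bdr1,2,3* (log2 fold change 2.23 ± 0.23, adjusted p = 6.49e-05). *IMD1*, the dehydrogenase of the same cycle, stood at 13.8, 11.7 and 14.2 CPM in wild type and 38.9, 40.2 and 43.7 CPM in *bdr1,2,3* (log2 fold change 1.64 ± 0.17, adjusted p = 5.16e-05). None of the 3 genes had overlapping groups, and *MAM1* rose 4.68-fold. *IPMI2*, a small subunit of the isomerase, rose by 1.19 ± 0.25 on the log2 scale (adjusted p = 0.0174), and *BAT5*, the plastid transporter of the keto acids, by 1.29 ± 0.24 (adjusted p = 0.01). Its partner *IPMI1* stood at 12.7, 12.5 and 27.1 CPM in wild type and 30.6, 32.3 and 46.7 CPM in *bdr1,2,3*, also without overlap, but its adjusted p was 0.0553. *IMS2* (also called *MAM3*), which can make the longer side chains, stood at 2.49, 2.28 and 1.99 CPM in wild type and 3.47, 1.75 and 3.85 CPM in *bdr1,2,3* (log2 fold change 0.39 ± 0.38, adjusted p = 0.682), and its groups overlapped.

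The core of the molecule is then built by cytochromes P450 and conjugating enzymes. *CYP79F1*, which turns chain-elongated methionine into an oxime, stood at 7.4, 7.92 and 11.8 CPM in wild type and 36.5, 35.1 and 52.7 CPM in *bdr1,2,3* (log2 fold change 2.24 ± 0.26, adjusted p = 0.000194). Its neighbor and close copy *CYP79F2* stood at 1.35, 2.91 and 1.28 CPM in wild type and 4.93, 6.33 and 5.71 CPM in *bdr1,2,3* (log2 fold change 1.53 ± 0.34, adjusted p = 0.0253), and reads common to both copies may not have been counted. *CYP83A1*, which oxidizes the oxime, stood at 30.03, 31.3 and 48.6 CPM in wild type and 96.9, 109 and 149 CPM in *bdr1,2,3* (log2 fold change 1.71 ± 0.24, adjusted p = 0.00102). The 3 P450 genes were higher in each mutant library than in any wild-type library. The last steps of the core gave no call. *SUR1*, the C-S lyase shared with the indolic branch, had a log2 fold change of 0.35 ± 0.12 (adjusted p = 0.179), and the sulfotransferases *SOT17* and *SOT18* had 0.66 ± 0.20 and 0.37 ± 0.16 (adjusted p = 0.112 and 0.285), with the mutant libraries all above wild type in each.

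Genes of side-chain oxidation and 1 of the 2 main regulators rose too. *FMO GS-OX3* and *FMO GS-OX1*, flavin monooxygenases that oxidize the side-chain sulfur, rose by 1.66 ± 0.27 and 1.54 ± 0.37 on the log2 scale (adjusted p = 0.00385 and 0.0411). *MYB29*, a transcription factor of the aliphatic branch, stood at 1.66, 1.61 and 0.567 CPM in wild type and 5.4, 4.58 and 5.09 CPM in *bdr1,2,3* (log2 fold change 1.85 ± 0.33, adjusted p = 0.00734). *MYB28*, the other main regulator and the more abundant transcript in each library, stood at 40.4, 37 and 33 CPM in wild type and 53.4, 54.8 and 50.3 CPM in *bdr1,2,3*, all above wild type (log2 fold change 0.52 ± 0.13, adjusted p = 0.0573).

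**Figure D1:**
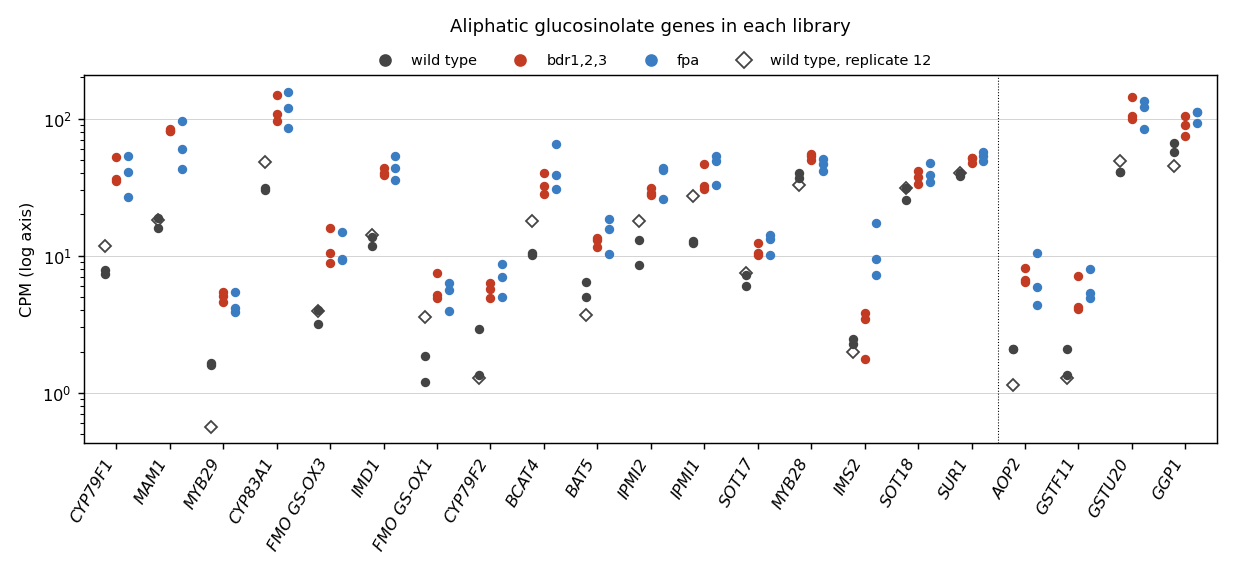
CPM on a log axis of aliphatic glucosinolate genes in each of the 9 libraries, with wild type in black, *bdr1,2,3* in red, *fpa* in blue and wild-type replicate 12 as an open diamond. In 16 of the 17 genes left of the dotted line the red points lie above every wild-type point, and the blue points reach the same heights. The 4 genes to its right were chosen after their values were seen.

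A second list of 11 genes of the branch, drawn up after the calls were seen, held 4 more genes that rose. *GSTU20* and *GSTF11*, glutathione transferases that conjugate the oxidized oxime, rose by 1.41 ± 0.19 and 1.64 ± 0.34 (adjusted p = 0.00071 and 0.0177). *AOP2*, a side-chain dioxygenase whose product is not active in Col-0, stood at 2.07, 2.09 and 1.13 CPM in wild type and 6.48, 6.69 and 8.11 CPM in *bdr1,2,3* (log2 fold change 1.92 ± 0.34, adjusted p = 0.00679). *GGP1*, which removes the glutamyl residue of the conjugate, rose by 0.67 ± 0.17 (adjusted p = 0.0495, and 0.0623 without wild-type replicate 12). *AK3*, an aspartate kinase at the entry to methionine and threonine synthesis, was among the 12 largest rises at 4.81, 6.09 and 7.23 CPM in wild type and 22.9, 20.7 and 28.1 CPM in *bdr1,2,3* (log2 fold change 2.01 ± 0.26, adjusted p = 0.00052). *AK3* overlaps a gene on the other strand over 2537 bases and *GSTF11* one over 1096 bases, and the strand setting of the counting is not given in the sources used here. The indolic branch, made from tryptophan, and the myrosinases that cleave all glucosinolates gave 0 calls among 11 genes in edgeR and 0 in DESeq2, with 4 at an unadjusted p under 0.05. *TGG1*, the main myrosinase of leaves, stood at 1392, 1153 and 929.5 CPM in wild type and 1683, 1536 and 1505 CPM in *bdr1,2,3*, and *CYP83B1*, the indolic counterpart of *CYP83A1*, at 162, 171 and 167 CPM in wild type and 139.9, 129.9 and 128 CPM in *bdr1,2,3*.

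The *fpa* libraries were as high for this branch. *CYP79F1* stood at 53.5, 26.6 and 40.9 CPM, *MAM1* at 96.7, 43 and 59.9 and *CYP83A1* at 157, 86.2 and 119 in *fpa*. In the direct contrast of *bdr1,2,3* with *fpa*, 0 of the 11 risen genes differed in edgeR or in DESeq2, and 0 had an unadjusted p under 0.05. Their log2 differences ran from -0.43 (*BCAT4*, -0.43 ± 0.26) to 0.31 (*MAM1*, 0.31 ± 0.22). *IMS2* was the exception of the 17, at 17.2, 7.28 and 9.51 CPM in *fpa*, and was lower in *bdr1,2,3* than in *fpa* (log2 difference -1.92 ± 0.35, adjusted p = 0.00632). Without wild-type replicate 12, 12 of the 17 were called higher with a median of 1.53, and over all single libraries left out the count ran from 7 to 12.

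The promoters of the 17 genes, from 250 bases before to 50 bases after the RefSeq gene start, were searched for CACGTG, the G-box bound by bZIP and bHLH factors, whose letters are the same on both strands. Other motifs were searched on both strands. CACGTC is a motif of bZIP factors, CCGAC of the drought and cold response, GCCGCC of the ethylene response and TGTCTC of the auxin response. TTGACC is a motif of WRKY factors, GAANNTTC of heat shock factors, AAAATATCT of the clock and TGGGCC of TCP factors and ribosomal protein genes. None of them overlaps the G-box letters shown. The G-box was present in 4 of 17 promoters, against 8.91% of the 19801 promoters of tested genes, 10.3% of those of genes called higher and 6.99% of those of genes called lower. The 4 windows are shown as the promoter letters that several genes of the branch have in common. They are written 5′ to 3′ on the gene's strand, with the G-box in capitals.
*BAT5*, chr4:7210800-7210829, plus strand: gtgtgtcatttaCACGTGcgtatcgtggaa
*CYP83A1*, chr4:7992455-7992484, minus strand: tattaattctaaCACGTGaggtttcgtaag
*FMO GS-OX3*, chr1:23159751-23159780, plus strand: tcgttcaccgaaCACGTGgattggaatgag
*SUR1*, chr2:8880473-8880502, minus strand: taatttttgtggCACGTGattttagttttg
The G-box began 43 bases before the gene start in *CYP83A1* and 50 bases before it in *SUR1*, at base 6 of the gene in *BAT5* and at base 30 in *FMO GS-OX3*. Of these genes *SUR1* was not called. Over all called genes CCGAC was present in 23.1% of the promoters of higher and 11.3% of those of lower genes, against 16.1% of all. A match is a run of letters and not a measured binding site, and 13 of the 17 promoters held none in this window.

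Some genes of carbon fixation fell. Of 17 genes of the Calvin cycle, by which the chloroplast fixes carbon dioxide, 3 fell, and the median over the 17 was -0.43. *GAPB*, a subunit of the plastid glyceraldehyde-3-phosphate dehydrogenase, stood at 2322, 2538 and 4236 CPM in wild type and 1193, 1439 and 1437 CPM in *bdr1,2,3* (log2 fold change -1.16 ± 0.21, adjusted p = 0.00699). *RCA*, the Rubisco activase, stood at 3907, 4276 and 5029.6 CPM in wild type and 2620.3, 2844 and 2510.5 CPM in *bdr1,2,3* (log2 fold change -0.73 ± 0.15, adjusted p = 0.0186). *PGK1*, a phosphoglycerate kinase, stood at 2304, 2439.6 and 3801 CPM in wild type and 1409, 1611 and 1742 CPM in *bdr1,2,3* (log2 fold change -0.84 ± 0.19, adjusted p = 0.0318). In each of these 3 genes the mutant libraries were all below wild type, and wild-type replicate 12 was the highest library. Of the 17 genes 10 had all mutant libraries below all wild-type libraries, against 9.62% of all genes tested. The Rubisco small subunit genes *RBCS1A*, *RBCS1B*, *RBCS2B* and *RBCS3B* had log2 fold changes of -0.52 ± 0.21, -0.68 ± 0.23, -0.69 ± 0.18 and -0.8 ± 0.22, none of which passed the test.

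The summed level of the 17 genes was 35415, 38895 and 58278 CPM in wild type and 28429, 31752 and 30552 CPM in *bdr1,2,3*. Replicate 12 of wild type thus held far more of these transcripts than the other wild-type libraries. Without it 5 of the 17 were called lower, but the median moved to -0.19. Over all single libraries left out the count of calls ran from 0 to 7. *CA1*, the plastid carbonic anhydrase, and *FD1*, a leaf-type ferredoxin, both chosen after their values were seen, fell, with log2 fold changes of -0.88 ± 0.18 and -1.48 ± 0.28 (adjusted p = 0.0149 and 0.0102).

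Photorespiration recycles the product of Rubisco's side reaction with oxygen through chloroplast, peroxisome and mitochondrion. In a list of 18 genes drawn up after the calls were seen, 6 fell, in all 3 compartments, and the median was -0.39 (-0.20 without wild-type replicate 12). Over all single libraries left out the count of calls ran from 2 to 7. *CAT2* (AT4G35090), the leaf catalase that removes peroxisomal hydrogen peroxide, stood at 864, 1019 and 1189 CPM in wild type and 364, 473 and 548 CPM in *bdr1,2,3* (log2 fold change -1.15 ± 0.18, adjusted p = 0.00216). *GOX1*, a glycolate oxidase that makes this peroxide, stood at 1354, 1370.1 and 1758 CPM in wild type and 946, 1033 and 967 CPM in *bdr1,2,3* (log2 fold change -0.61 ± 0.15, adjusted p = 0.0439). *GLDP1*, a P protein of the mitochondrial glycine decarboxylase, stood at 2897, 3202 and 2921 CPM in wild type and 1473, 1763 and 1286 CPM in *bdr1,2,3* (log2 fold change -1.0 ± 0.17, adjusted p = 0.00396). The mutant libraries lay below wild type throughout in these genes. The other P protein gene *GLDP2*, the dihydrolipoyl dehydrogenase gene *mtLPD1* and *LrgB* (also called *PLGG1*), the plastid transporter of glycolate and glycerate, fell as well, with log2 fold changes of -0.91 ± 0.18, -0.77 ± 0.17 and -0.88 ± 0.21 (adjusted p = 0.0135, 0.0245 and 0.0399). Genes of the same cycle such as the serine hydroxymethyltransferase *SHM1*, at 0.01 ± 0.14, and the aminotransferase *GGT1*, at 0.04 ± 0.14, lay near the median of all genes.

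**Figure D2:**
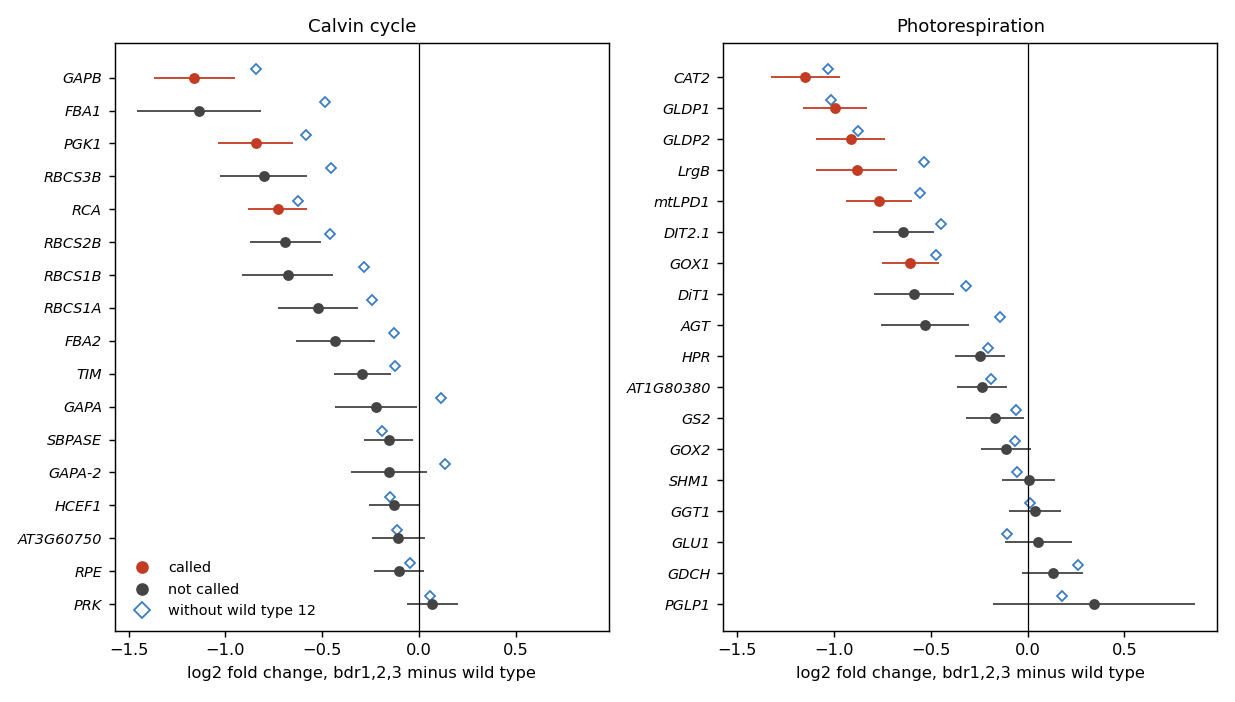
Log2 fold change of *bdr1,2,3* against wild type for 17 Calvin cycle genes and 18 photorespiration genes, with the standard error as a bar, called genes in red and the value without wild-type replicate 12 as an open blue diamond. Most points lie left of 0 and most diamonds lie nearer to it, while *GLDP1* and *GLDP2* hardly move. The photorespiration list was drawn up after the calls were seen.

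The light reactions gave few calls. Of 20 antenna genes, which encode the chlorophyll-binding proteins around the photosystems, *LHCB3* alone was called, at 282, 247 and 307 CPM in wild type and 554, 489 and 414 CPM in *bdr1,2,3* (log2 fold change 0.8 ± 0.17, adjusted p = 0.0218). *LHCA4* stood at 1049.8, 856 and 1102 CPM in wild type and 1757, 1499.6 and 1345 CPM in *bdr1,2,3*, also all above wild type (log2 fold change 0.61 ± 0.17, adjusted p = 0.0759). Without wild-type replicate 12, 5 antenna genes were called higher and the median moved from 0.05 to 0.26. Over all single libraries left out the count of higher calls ran from 0 to 5 and the median from -0.04 to 0.26. *LHCB3* was also higher than in *fpa*, by 0.86 ± 0.17 (adjusted p = 0.0106). The 31 photosystem and electron transport subunits gave 0 calls in edgeR, 2 in DESeq2 and 7 at an unadjusted p under 0.05, and the 23 genes of chlorophyll synthesis gave 0, 0 and 3. Without wild-type replicate 12 the photosystem and electron transport list held 1 gene called higher and 2 called lower. *PSBO1*, of the oxygen-evolving complex, had a log2 fold change of -0.02 ± 0.17, and *GUN5*, a subunit of magnesium chelatase, 0.04 ± 0.13.

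Within the chloroplast NDH complex, which carries electrons around photosystem I, a few subunit genes fell by large factors while the rest did not. In a list of 16 nuclear subunit genes drawn up after the calls were seen, *NdhM* stood at 113, 90.4 and 46.1 CPM in wild type and 5.92, 9.71 and 8.18 CPM in *bdr1,2,3* (log2 fold change -3.4 ± 0.28, adjusted p = 8.34e-06). *PnsL1* stood at 194, 172 and 212 CPM in wild type and 43.8, 56.7 and 58.2 CPM in *bdr1,2,3* (log2 fold change -1.86 ± 0.15, adjusted p = 5.73e-06). *NdhO* stood at 109, 116 and 129.8 CPM in wild type and 87.2, 72.6 and 81.7 CPM in *bdr1,2,3* (log2 fold change -0.55 ± 0.13, adjusted p = 0.0329). The other 13 had log2 fold changes between -0.43 (*NdhT*) and 0.34 (*PnsL3*). *NdhM* and *PnsL1* were lower than in *fpa* as well, with log2 differences of -3.79 ± 0.28 and -1.97 ± 0.15 (adjusted p = 3.47e-06 and 3.47e-06), whereas *NdhO* was higher than in *fpa* by 0.52 ± 0.13 (adjusted p = 0.0367). Carotenoid synthesis, in another list of that kind, gave 2 calls among 13 genes, against 2.48% of all genes tested. *Z-ISO*, the isomerase of zeta-carotene, stood at 29.3, 37.4 and 44.1 CPM in wild type and 9.35, 12.4 and 13.1 CPM in *bdr1,2,3* (log2 fold change -1.66 ± 0.18, adjusted p = 0.000101), and the beta-ring hydroxylase *BETA-OHASE 1* fell (log2 fold change -0.83 ± 0.20, adjusted p = 0.0466).

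Among light receptors *PHYE*, a red-light phytochrome named after its values were seen, stood at 32.8, 31.1 and 25.5 CPM in wild type and 6.05, 8.36 and 6.53 CPM in *bdr1,2,3* (log2 fold change -2.1 ± 0.18, adjusted p = 1.41e-05), and it was below *fpa* too (log2 difference -1.57 ± 0.18, adjusted p = 0.00016). *PHYA* and the blue-light receptors *CRY1* and *CRY2* had log2 fold changes of 0.08 ± 0.13, -0.05 ± 0.15 and 0.29 ± 0.15. The 19 genes of light signalling gave 0 calls in edgeR and DESeq2 and 6 at an unadjusted p under 0.05, and the 19 clock genes gave 0, 0 and 2.

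Among genes of flowering time, 3 of 13 floral repressors rose, against 0.603% of all genes tested, and the median of the list was 0.18. All 3 are MADS-box genes of the *FLC* clade, which keep the meristem vegetative. *FLC* stood at 10.1, 18 and 12.1 CPM in wild type and 125, 109 and 124 CPM in *bdr1,2,3* (log2 fold change 3.14 ± 0.20, adjusted p = 5.61e-07). *MAF5* stood at 0.673, 0.411 and 0 CPM in wild type and 3.52, 3.74 and 4.54 CPM in *bdr1,2,3* (log2 fold change 3.18 ± 0.55, adjusted p = 0.00571), and *MAF4* at 2.38, 3.44 and 0.993 CPM in wild type and 6.91, 9.39 and 7.15 CPM in *bdr1,2,3* (log2 fold change 1.67 ± 0.34, adjusted p = 0.0167). Mutant libraries exceeded wild type without overlap in all 3 genes. *FLC* in *fpa* was as high, at 103, 129 and 136 CPM, whereas *MAF5* was lower there, at 0.566, 1.27 and 1.19 CPM, and differed from *bdr1,2,3* by 1.94 ± 0.49 on the log2 scale (adjusted p = 0.0444). *FLC* lies within an antisense transcript over 6067 bases, and reads of the gene and of that transcript cannot be told apart where the counting ignored strand.

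Of 11 floral activators *AGL20* (also called *SOC1*), a MADS-box integrator that *FLC* is known to repress, fell, from 12.4, 11.3 and 9.79 CPM in wild type to 2.19, 1.35 and 2.06 CPM in *bdr1,2,3* (log2 fold change -2.59 ± 0.33, adjusted p = 0.000465). *FT*, which encodes the mobile flowering signal and is another known target of *FLC*, stood at 3.16, 2.13 and 4.96 CPM in wild type and 0.772, 0.836 and 1.03 CPM in *bdr1,2,3*, all below wild type (log2 fold change -1.92 ± 0.52, adjusted p = 0.0734). *FT* in *fpa* stood at 0.227, 0.0531 and 0.381 CPM. *SVP*, a repressor that acts with *FLC*, stood at 103, 101 and 122 CPM in wild type and 77.6, 69.2 and 77.8 CPM in *bdr1,2,3*, also all below (log2 fold change -0.54 ± 0.14, adjusted p = 0.0541), and DESeq2 called it lower. The autonomous pathway, a group of genes that hold *FLC* down, gave 0 calls among 8 in edgeR and DESeq2 and 1 at an unadjusted p under 0.05. *FPA* itself had a log2 fold change of -0.53 ± 0.18 (adjusted p = 0.172). Wild-type replicate 12 decided this result, since without it *FPA* was called lower (log2 fold change -0.67, adjusted p = 0.03). *FPA* stood at 56.8, 63.2 and 42.3 CPM in wild type, 41.1, 43.2 and 28.3 CPM in *bdr1,2,3* and 45.5, 41.1 and 37.9 CPM in *fpa*. The 4 called genes kept their calls without wild-type replicate 12, with log2 fold changes of 3.07 for *FLC*, 1.41 for *MAF4*, 2.86 for *MAF5* and -2.67 for *AGL20*.

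Several genes of mineral uptake fell. Of 17 genes that phosphate starvation is known to induce, 3 fell, against 1.88% of all genes tested. The median was -0.91, the lowest of the 64 lists. *PHT1;1*, the main high-affinity phosphate transporter of the root, stood at 45.1, 63.6 and 68.5 CPM in wild type and 26.4, 28.1 and 34.3 CPM in *bdr1,2,3* (log2 fold change -1.0 ± 0.17, adjusted p = 0.00437). AT5G03545, a noncoding RNA (*AT4*) that buffers a phosphate-responsive microRNA, stood at 178, 167 and 399 CPM in wild type and 40.1, 65.8 and 97.8 CPM in *bdr1,2,3* (log2 fold change -1.87 ± 0.36, adjusted p = 0.0123). *SQD2*, which replaces phospholipids with sulfolipids, stood at 206, 216 and 291 CPM in wild type and 99.3, 125 and 150.3 CPM in *bdr1,2,3* (log2 fold change -0.93 ± 0.22, adjusted p = 0.0394). In all 3 genes the groups were apart. In 9 of the 17 the mutant libraries were all below wild type, against 9.62% of all genes tested. Within *bdr1,2,3* these genes spread widely, as in the acid phosphatase gene *PAP17* at 45.9, 93.2 and 150.04 CPM against 177, 179 and 329.7 CPM in wild type (log2 fold change -1.24 ± 0.38, adjusted p = 0.119). Without wild-type replicate 12, 2 of the 17 were called and the median was -0.76, with *SQD2* at an adjusted p of 0.0504. Over all single libraries left out the count of calls ran from 1 to 5.

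Of the 4 ammonium transporter genes tested, a list drawn up after the calls were seen, 3 fell, and between 1 and 3 did when a single library was left out. *AMT1;2* stood at 62.1, 82.8 and 116 CPM in wild type and 29.4, 41.2 and 45.7 CPM in *bdr1,2,3* (log2 fold change -1.16 ± 0.21, adjusted p = 0.00714). *AMT1;1* stood at 8.13, 6.65 and 8.79 CPM in wild type and 4.03, 4.02 and 2.54 CPM in *bdr1,2,3* (log2 fold change -1.12 ± 0.26, adjusted p = 0.0305), and it overlaps an antisense transcript over 1709 bases. *AMT1;3*, named after its values were seen, stood at 30.6, 37.8 and 53.3 CPM in wild type and 17.9, 18.9 and 23 CPM in *bdr1,2,3* (log2 fold change -1.01 ± 0.19, adjusted p = 0.00853). Each gene imports ammonium across the root plasma membrane, and each was lower in every mutant library than in any wild-type library. The remaining gene of the list, *AMT2*, had a log2 fold change of -0.23 ± 0.16 (adjusted p = 0.546). *WR3*, a partner protein of nitrate transporters, fell (log2 fold change -0.88 ± 0.17, adjusted p = 0.0115), so that 3 of the 17 genes of the nitrogen list were called. The enzymes of nitrate assimilation were not called, with log2 fold changes of 0.25 ± 0.24 and -0.21 ± 0.18 for the nitrate reductases *NIA1* and *NIA2* and -0.3 ± 0.14 for the nitrite reductase *NIR1*. Of 11 genes of sulfur supply, *SULTR4;2*, which releases sulfate from the vacuole, stood at 5.59, 5.12 and 5.96 CPM in wild type and 1.54, 1.51 and 1.38 CPM in *bdr1,2,3* (log2 fold change -1.89 ± 0.35, adjusted p = 0.0082), and below *fpa* too (log2 difference -1.55 ± 0.34, adjusted p = 0.0213). The 21 iron genes gave 0 calls in edgeR, 1 in DESeq2 and 3 at an unadjusted p under 0.05.

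Among copper enzymes and their supply, 3 genes fell. *CSD2*, the plastid copper/zinc superoxide dismutase, stood at 449.6, 513 and 953 CPM in wild type and 170.3, 201 and 193 CPM in *bdr1,2,3* (log2 fold change -1.76 ± 0.23, adjusted p = 0.00051). *CCS*, the chaperone that loads copper into these dismutases, stood at 104, 108 and 118 CPM in wild type and 54.9, 56.7 and 49.7 CPM in *bdr1,2,3* (log2 fold change -1.03 ± 0.13, adjusted p = 0.000275). *PAA1* (AT4G33520), which pumps copper into the plastid, stood at 92.4, 91.8 and 145 CPM in wild type and 56, 61.7 and 53.7 CPM in *bdr1,2,3* (log2 fold change -0.93 ± 0.17, adjusted p = 0.00741). These are the 3 calls of a list of 10 drawn up after the calls were seen, and in each the groups were apart. *CSD1*, the cytosolic dismutase, stood at 155, 156 and 226 CPM in wild type and 106, 107 and 138 CPM in *bdr1,2,3*, all below (log2 fold change -0.61 ± 0.18, adjusted p = 0.111). In *fpa*, *CSD2* stood at 514, 479 and 508 CPM and *CCS* at 117, 129 and 111 CPM. Directly compared, *bdr1,2,3* was lower than *fpa*, with log2 differences of -1.41 ± 0.23 in *CSD2*, -1.15 ± 0.13 in *CCS* and -0.92 ± 0.18 in *CSD1* (adjusted p = 0.00265, 0.000103 and 0.0105). Without wild-type replicate 12, which was the highest library for *CSD2*, its log2 fold change was -1.36 (adjusted p = 1.41e-06).

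**Figure D3:**
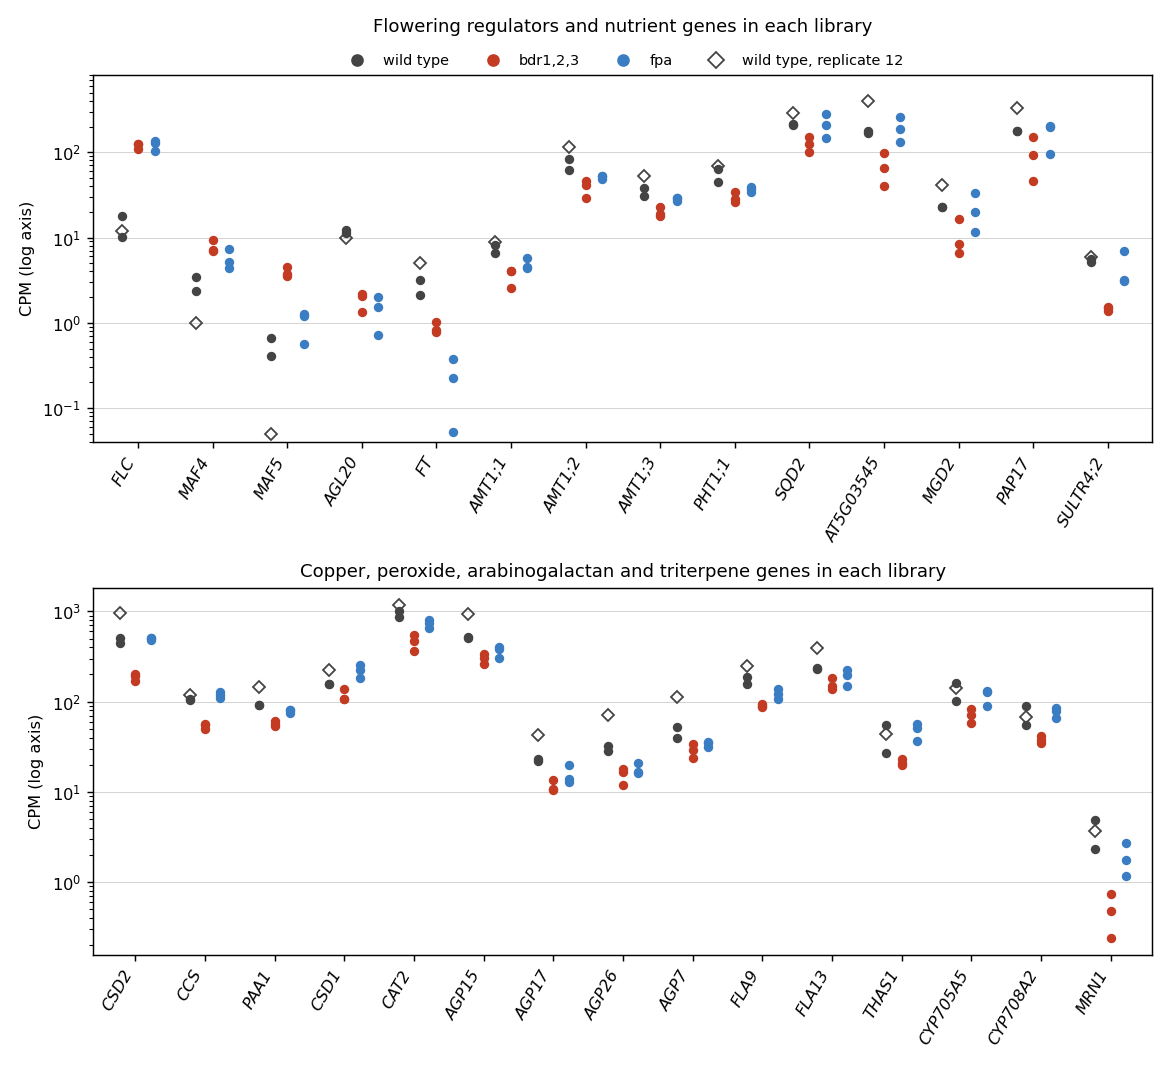
CPM on a log axis of flowering and nutrient genes (top) and of copper, peroxide, arabinogalactan and triterpene genes (bottom) in each of the 9 libraries, with wild type in black, *bdr1,2,3* in red, *fpa* in blue and wild-type replicate 12 as an open diamond. *FLC*, *MAF4* and *MAF5* are the genes whose red points lie above wild type, and in the other genes the red points lie below. A value of 0 CPM (*MAF5* in wild-type replicate 12) is drawn at the lower edge.

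Some genes of cell wall glycoproteins fell. Of 42 arabinogalactan and fasciclin-like arabinogalactan protein genes, which encode heavily glycosylated proteins of the cell surface, 6 fell and the median was -0.66. All mutant libraries lay below wild type in 19 of them, against 9.62% of all genes tested. The list was completed after the calls were seen. *FLA9* stood at 156, 187 and 247 CPM in wild type and 87, 95 and 89 CPM in *bdr1,2,3* (log2 fold change -1.12 ± 0.17, adjusted p = 0.00165). *AGP15* stood at 502, 518 and 926 CPM in wild type and 261, 305 and 338 CPM in *bdr1,2,3* (log2 fold change -1.1 ± 0.22, adjusted p = 0.0139). *AGP17* stood at 22.2, 23.1 and 43.1 CPM in wild type and 10.5, 13.5 and 10.8 CPM in *bdr1,2,3* (log2 fold change -1.32 ± 0.25, adjusted p = 0.0113). Wild-type replicate 12 was the highest library in each, and without it the median was -0.37. *AGP26*, *AGP7* and *FLA13* had log2 fold changes of -1.48 ± 0.30, -1.21 ± 0.29 and -0.87 ± 0.21 (adjusted p = 0.0148, 0.0387 and 0.0428). Over single libraries left out the count ran from 1 to 14, and DESeq2 called 14. Among other wall genes, *XTH20* and *XTH13*, xyloglucan-remodelling enzymes, rose by 1.71 ± 0.35 and 1.21 ± 0.28 (adjusted p = 0.0162 and 0.0339) as the only 2 calls in edgeR of their 29-member family. *XTH13* lost its call with any single library left out, at an adjusted p of 0.0511 without wild-type replicate 12, and in the fit of 2 genotypes. The 25 expansins gave 0 calls in edgeR, 1 in DESeq2 and 2 at an unadjusted p under 0.05.

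In the thalianol and marneral clusters, neighboring genes that together make root triterpenes, 4 genes fell. *THAS1*, the thalianol synthase, stood at 26.7, 55.2 and 44 CPM in wild type and 20.8, 23.3 and 19.7 CPM in *bdr1,2,3* (log2 fold change -0.98 ± 0.23, adjusted p = 0.0374). The cytochromes P450 *CYP708A2* and *CYP705A5*, next to it in the genome, had log2 fold changes of -0.91 ± 0.17 and -0.92 ± 0.20 (adjusted p = 0.0113 and 0.0208). *MRN1*, the marneral synthase, stood at 2.33, 4.82 and 3.69 CPM in wild type and 0.729, 0.239 and 0.481 CPM in *bdr1,2,3* (log2 fold change -2.9 ± 0.51, adjusted p = 0.00644). These are 4 of 8 genes in a list drawn up after the calls were seen, and in none of the 4 did the groups overlap. With a single library left out, between 1 and 5 of the 8 were called. *THAS1* and *CYP708A2* were also below *fpa*, with log2 differences of -1.18 ± 0.23 and -1.02 ± 0.17 (adjusted p = 0.00917 and 0.00377). Over its whole family, cytochrome P450 genes gave 8 calls among 169, 3 higher and 5 lower, against 2.48% of all genes tested. In the flavonoid pathway *TT4*, the chalcone synthase, stood at 131, 174 and 224 CPM in wild type and 76.7, 94.6 and 96.2 CPM in *bdr1,2,3* (log2 fold change -0.98 ± 0.20, adjusted p = 0.0158), the single call among 18 genes, and below *fpa* (log2 difference -1.11 ± 0.20, adjusted p = 0.00553).

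In the lists of stress and hormones single genes were called, where 2.48% of all genes tested were. Of 20 jasmonate genes, *AOC2*, an allene oxide cyclase of jasmonate synthesis, stood at 84.6, 93.6 and 94.2 CPM in wild type and 157, 162 and 164 CPM in *bdr1,2,3* (log2 fold change 0.83 ± 0.15, adjusted p = 0.00689), and *ORA59*, a defense regulator downstream of jasmonate and ethylene, at 2.54, 2.05 and 2.41 CPM in wild type and 6.95, 8.2 and 6.81 CPM in *bdr1,2,3* (log2 fold change 1.66 ± 0.35, adjusted p = 0.0193). *ERF2*, of the same factor family, stood at 5.23, 4.67 and 3.4 CPM in wild type and 12.3, 13.6 and 19.3 CPM in *bdr1,2,3* (log2 fold change 1.72 ± 0.23, adjusted p = 0.000696). All 3 genes were without overlap, and *ERF2* was above *fpa* by 1.02 ± 0.22 (adjusted p = 0.0185). The median of the jasmonate list was -0.04, near that of all genes. Of 15 cold-response genes the dehydrin gene *LTI30* rose and the chloroplast membrane gene *COR413IM1* fell, with log2 fold changes of 1.1 ± 0.20 and -0.75 ± 0.17 (adjusted p = 0.00896 and 0.0268). *ARR4* and *ARR6*, cytokinin-induced response regulators that dampen cytokinin signalling, fell, with log2 fold changes of -1.19 ± 0.28 and -0.81 ± 0.17 (adjusted p = 0.0397 and 0.0226), 2 of 8 genes of the cytokinin list. *ARR4* stood at 128, 148 and 349.6 CPM in wild type and 87.3, 87.4 and 98.7 CPM in *bdr1,2,3*, its log2 fold change without wild-type replicate 12 was -0.6, and DESeq2 did not call it. *SUS4*, a sucrose synthase induced by low oxygen, stood at 5.07, 2.65 and 3.97 CPM in wild type and 1.07, 1.59 and 1.17 CPM in *bdr1,2,3* (log2 fold change -1.58 ± 0.34, adjusted p = 0.0234), and below *fpa* as well (log2 difference -2.27 ± 0.34, adjusted p = 0.00142). Its hypoxia list held no other call among 8.

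Some genes annotated as root hair specific rose. In a list of 17 drawn up after the calls were seen, 4 rose, *G3Pp2* by 1.2 ± 0.23, *RSH2* (AT1G12950) by 1.15 ± 0.23, *RHS19* by 0.93 ± 0.22 and *RHS13* by 0.78 ± 0.17 (adjusted p = 0.0123, 0.0168, 0.0393 and 0.028), and the median was 0.65. With a single library left out, between 0 and 5 of the 17 were called. *RHS19*, a class III peroxidase, stood at 9.94, 12 and 12.8 CPM in wild type and 24.6, 17.2 and 23.9 CPM in *bdr1,2,3*. The marker list of the root hair cell, 13 tested genes of 14, gave 0 calls in edgeR, 2 in DESeq2 and 3 at an unadjusted p under 0.05, with a median of 0.38 and 11 genes above 0. Its summed level was 63.8 to 82.3 CPM in wild type and 82.1 to 98.8 CPM in *bdr1,2,3*, so that the groups touched, and its part in the result was not tested. *RSL2*, a regulator of hair growth, stood at 1.4, 0.635 and 0.993 CPM in wild type and 4.2, 2.63 and 2.89 CPM in *bdr1,2,3*, all above wild type (log2 fold change 1.7 ± 0.45, adjusted p = 0.0683).

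Genes of the response to DNA damage gave 3 calls among 14, against 2.48% of all genes tested, in a list also drawn up after the calls were seen. *NAC044*, a transcription factor that stops the cell cycle after DNA damage, stood at 0.155, 0.224 and 0.851 CPM in wild type and 2.36, 3.02 and 2.06 CPM in *bdr1,2,3* (log2 fold change 2.93 ± 0.69, adjusted p = 0.0365). *NAC103* stood at 0.362, 0.261 and 0.567 CPM in wild type and 2.53, 2.43 and 1.03 CPM in *bdr1,2,3* (log2 fold change 2.46 ± 0.57, adjusted p = 0.0345). *GMI1*, named for its induction by gamma rays and mitomycin, stood at 5.23, 7.13 and 3.83 CPM in wild type and 12.5, 13.5 and 10.8 CPM in *bdr1,2,3* (log2 fold change 1.137 ± 0.23, adjusted p = 0.0139). The groups were apart in the 3 genes, but *NAC044* and *NAC103* lie at a few CPM, and between 0 and 3 of the 3 calls remained when a single library was left out. *NAC044* was above *fpa* by 2.43 ± 0.62 (adjusted p = 0.0473). The repair gene *BRCA1* stood at 2.8, 1.72 and 1.13 CPM in wild type and 4.89, 3.38 and 2.75 CPM in *bdr1,2,3*, with the lowest mutant library just under the highest wild-type library. Division itself showed no call in edgeR or DESeq2 among 12 genes of DNA replication, where 0 had an unadjusted p under 0.05, and the 14 mitotic genes gave 0 calls in both tools with 2 at an unadjusted p under 0.05.

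Of the 64 lists, 34 held no called gene in edgeR. They cover 513 tested genes, of which 84 (16.4%) had an unadjusted p under 0.05, against 15.1% of all genes tested, and DESeq2 called 11. Among them, 17 genes of abscisic acid and drought had a median of 0.24 with 15 above 0, and *RD22* and *RAB18* had log2 fold changes of 0.08 ± 0.25 and 0.04 ± 0.20. The 12 heat shock genes had a median of -0.47 (-0.35 without wild-type replicate 12), with *HSP70* at 251, 429.8 and 689 CPM in wild type and 87.4, 126 and 321 CPM in *bdr1,2,3*, in overlapping groups. Salicylic acid defense, ethylene, carbon starvation, starch, aquaporins, *WRKY* factors and the auxin families *Aux/IAA* and *GH3* gave medians between -0.32 and 0.23. The 2 ends, aquaporins and carbon starvation, moved to -0.08 and 0.09 without wild-type replicate 12. In that fit salicylic acid defense held 3 genes called lower among 14, with a median of -0.23, and starch and *GH3* held 1 each. DESeq2, with all libraries, called 2 genes of salicylic acid defense lower. Of the 23 aquaporin genes 9 had an unadjusted p under 0.05 in edgeR, 8 of them lower and 1 higher. Among large families, 2 of 241 pentatricopeptide repeat genes and 7 of 193 F-box genes were called, against 2.48% of all genes tested. Of 26 cytosolic ribosomal protein genes *RPL3B* was called, at 42.4, 47.9 and 58 CPM in wild type and 81.5, 83.8 and 115 CPM in *bdr1,2,3* (log2 fold change 0.92 ± 0.17, adjusted p = 0.00779).

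**Figure D4:**
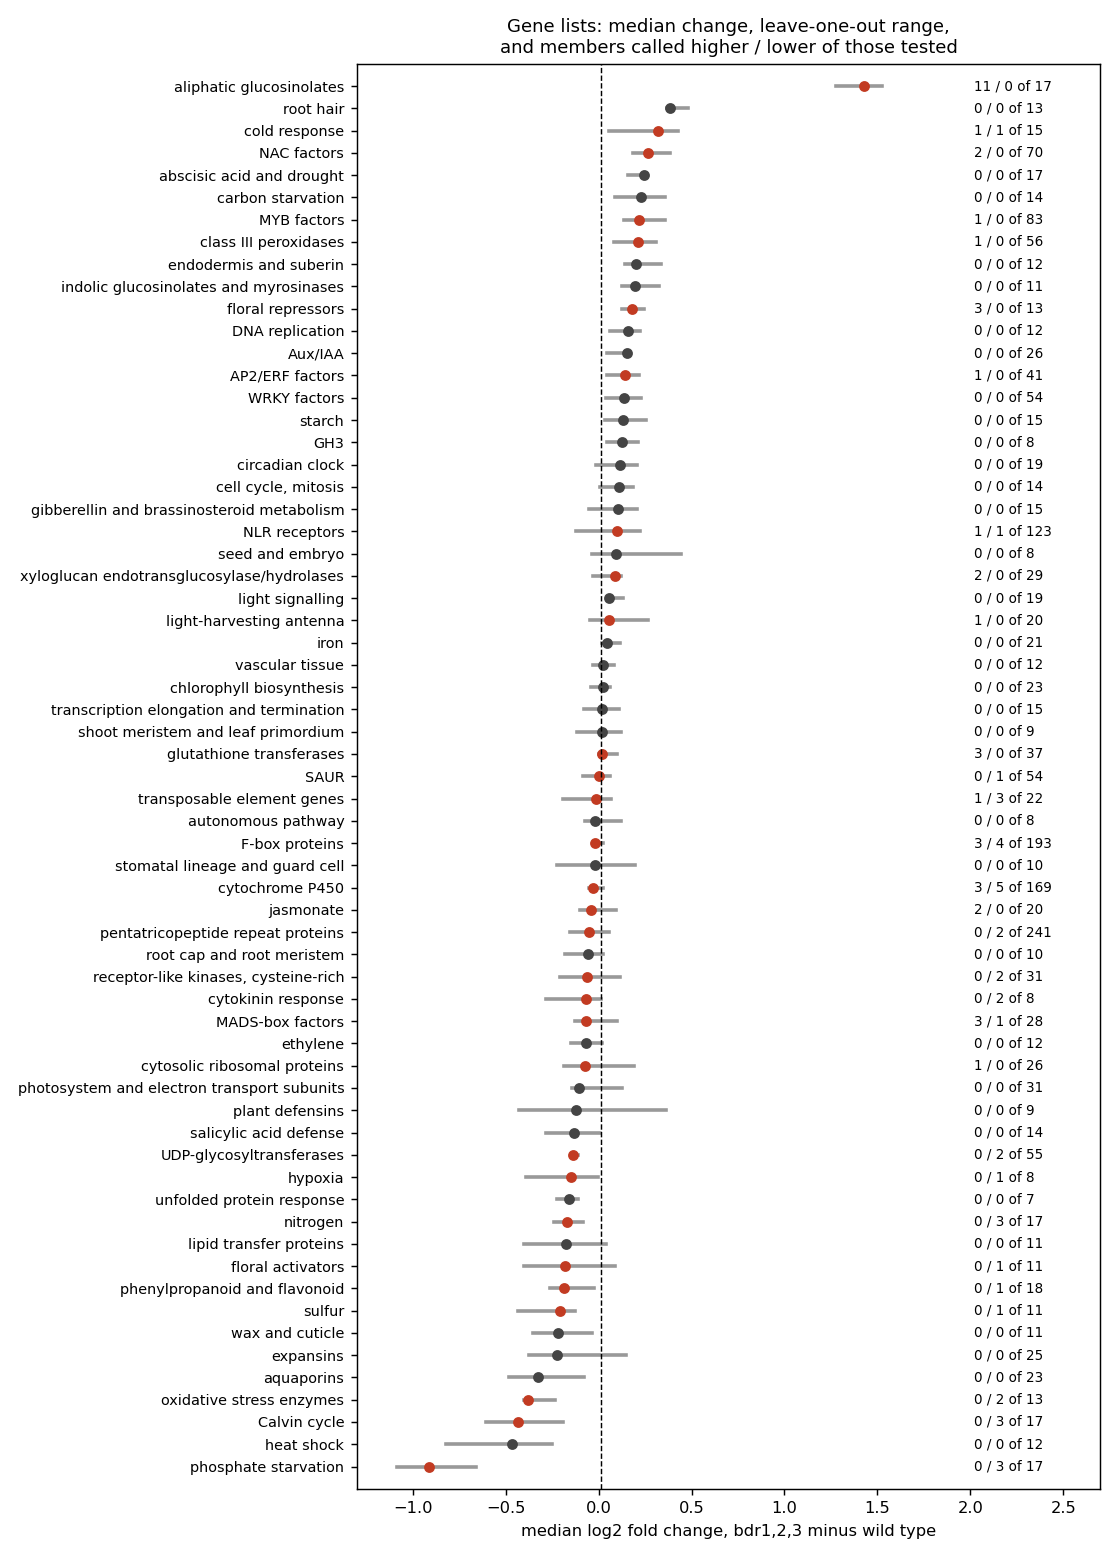
Median log2 fold change of *bdr1,2,3* against wild type in each of the 64 lists apart from floral organs (2 tested genes) with its range over the fits that leave out single libraries (grey bar), with lists that hold a called gene in red and the calls (higher / lower of genes tested) at the right. Aliphatic glucosinolates stand alone at the top with a median of 1.43, and the dashed line marks the median of all genes, 0.01.

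The paper reports a short-root phenotype for the *bdr* triple mutant, so the share of root in a whole seedling may differ from wild type. Root length was not recorded for these libraries, and its part in the levels of root genes given above was not tested. Markers of cell types in the seedling were compared to see whether tissues differed in share. The 8 lists held 76 tested genes, of which 0 were called in edgeR, 2 in DESeq2 and 12 (15.8%) had an unadjusted p under 0.05, with a median log2 fold change of 0.06. Vascular markers summed to 340.4 to 354 CPM in wild type and 342 to 361 CPM in *bdr1,2,3*. Markers of the shoot meristem and leaf primordium summed to 233 to 270.5 and 256 to 277 CPM, with overlap. Those of the endodermis did not overlap, at 122 to 142.8 CPM in wild type and 143.3 to 155 CPM in *bdr1,2,3*, and their part in any result was not tested. The root cap and meristem list, which is led by the endoplasmic reticulum body genes *PYK10* and *NAI2*, summed to 2971 to 3484 CPM in wild type and 2649 to 3051 CPM in *bdr1,2,3*. Stomatal markers, at 81.1 to 95.8 and 71.4 to 86.6 CPM, overlapped. Seed markers summed to 25 to 55.7 CPM in wild type and 37.7 to 41.9 CPM in *bdr1,2,3*, and 5 of 13 did not pass the filter on low counts. Of 6 floral organ markers 4 did not pass it, and the other 2 summed to under 4 CPM in each library of the 2 genotypes.

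The largest single changes fell in few of these functions. Among the 12 largest rises at a mean log2 CPM of at least 1, 5 belong to the glucosinolate branch or its amino acid supply (*CYP79F1*, *MAM1*, *AK3*, *AOP2* and *MYB29*). AT2G18193, a P-loop nucleoside triphosphatase, stood at 3.37, 3.77 and 0.284 CPM in wild type and 11, 15.2 and 13.9 CPM in *bdr1,2,3* (log2 fold change 2.24 ± 0.42, adjusted p = 0.00956). AT3G09405, a pectin acetylesterase, stood at 4.09, 2.46 and 1.99 CPM in wild type and 10.9, 16.2 and 8.25 CPM in *bdr1,2,3* (log2 fold change 2.01 ± 0.29, adjusted p = 0.00124), and AT1G32950, a subtilase, at 0.828, 0.934 and 1.28 CPM in wild type and 3.56, 4.34 and 4.19 CPM in *bdr1,2,3* (log2 fold change 2.04 ± 0.37, adjusted p = 0.00779). Mutant and wild-type libraries did not overlap in these 3 genes.

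Among the 12 largest falls, AT3G52155, of the phosphoglycerate mutase family, stood at 29.1, 23.9 and 34.7 CPM in wild type and 0.643, 0.756 and 1.44 CPM in *bdr1,2,3* (log2 fold change -5.01 ± 0.27, adjusted p = 3.56e-07). *RSY3*, an adenine nucleotide hydrolase-like protein, stood at 6.42, 7.69 and 3.97 CPM in wild type and 0.129, 0.557 and 0.756 CPM in *bdr1,2,3* (log2 fold change -3.74 ± 0.44, adjusted p = 0.000176). AT5G52370, annotated as a ribosomal S34 protein, stood at 21.8, 21.4 and 22.3 CPM in wild type and 0.858, 2.98 and 0.688 CPM in *bdr1,2,3* (log2 fold change -3.77 ± 0.37, adjusted p = 3.39e-05). All 3 stood under 3 CPM in each mutant library, whereas in *fpa* they stood at 12.3, 15.5 and 12.9, 6.34, 6.11 and 6.09 and 14.8, 18 and 18.6 CPM. This did not hold for all of the 12. AT3G01345, an uncharacterized protein, stood at 7.87, 10.3 and 12.3 CPM in wild type and 0.257, 0.199 and 0.138 CPM in *bdr1,2,3* (log2 fold change -5.58 ± 0.49, adjusted p = 1.36e-05). In *fpa* it stood at 0.113, 0.691 and 0.571 CPM, and the direct contrast gave no call (log2 difference -1.16 ± 0.59, adjusted p = 0.391). AT1G79740, a gene derived from a hAT transposon, fell from 24.6, 27.9 and 26.2 to 2.4, 2.19 and 3.71 CPM (log2 fold change -3.28 ± 0.20, adjusted p = 4.2e-07). Of 22 transposable element genes 3 fell and 1 rose, among them the retroelements *SADHU3-2* at -1.61 ± 0.30 and *SADHU6-1* at -1.58 ± 0.31 (adjusted p = 0.00968 and 0.0147) and *SADHU5-1* at 1.78 ± 0.42 (adjusted p = 0.0393). Such elements exist in several copies, and reads that aligned to more than 1 place were removed, so their levels are uncertain. In *SADHU5-1* the groups also overlapped, and its call held in 6 of 11 alternative fits.

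The direct contrast showed how much of this differed from *fpa*. Over all genes tested 722 differed between *bdr1,2,3* and *fpa* (3.54%), 282 higher (1.38%) and 440 lower (2.16%) in *bdr1,2,3*. Of the 123 genes higher than wild type 27 differed from *fpa*, and of the 384 lower genes 212 did. Both contrasts share the *bdr1,2,3* libraries, so these counts are a description. By function, the called genes of glucosinolates, arabinogalactan proteins and root hair specific proteins did not pass this test, with 0 of 11, 0 of 6 and 0 of 4 called in edgeR, 0, 1 and 1 at an unadjusted p under 0.05 and 0 in each by DESeq2. The called Calvin cycle genes were 0 of 3 in edgeR, but all 3 had an unadjusted p under 0.05 and were called by DESeq2. Those of copper delivery (2 of 3), the NDH complex (3 of 3) and the triterpene clusters (2 of 4) differed. The genes that differed in these lists were lower than in *fpa*, apart from *NdhO* of the NDH complex, which was higher.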

How the data were processed

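The authors aligned single-end reads to TAIR10 with TopHat2 2.0.8, kept uniquely aligned reads (SAMtools 1.2) and deposited unnormalized counts per gene from featureCounts, whose strand setting is not given in the sources used here. Depth was 8676610 to 26861793 counts per library, and the common biological coefficient of variation was 0.188. A second deposited table of normalized values, without wild-type replicate 12, was not used, and 0 columns lacked a sample.

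Counts were filtered with filterByExpr, scaled by TMM and tested in 1 fit of all 3 genotypes with edgeR 4.0.16 (limma 3.58.1, R 4.3.3; quasi-likelihood test, two-sided, Benjamini-Hochberg adjusted p under 0.05). Standard errors were taken as the absolute log2 fold change over the square root of F. Data simulated for this comparison held 20195 genes, of which 200 were changed. The fit recovered 99% of the 4-fold and 77% of the 2-fold changes, and 11 of its 187 calls were false. Recovery was not split by expression level. The changed genes were drawn only from those with a mean log2 CPM above 1, which leaves out scarcer genes such as *NAC044*. These values therefore give no figure for genes of a few CPM or less. Nor do they show the effect of an outlying library such as wild-type replicate 12. Alternatives were DESeq2 1.42.0, RLE factors, no filter, a minimum of 10 counts per library, a fit of 2 genotypes, an adjusted p under 0.01 and each library left out in turn.

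Members and lists were chosen with earlier results of these data known. Genes named are the *BDR* genes, the 12 largest rises and falls among called genes at a mean log2 CPM of at least 1 without overlap of the groups, up to 3 called members per list and direction by smallest p, and up to 3 of the highest level in lists without calls. Other genes named were chosen after their values were seen, as members of the lists described. In 12 entries of the 64 lists the symbol matched no RefSeq gene, and they were left out. Gene names, overlaps and promoter sequences are from RefSeq for TAIR10.1, and the authors' gene borders may differ.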

Additional observations from a re-analysis of the deposited data

How the results depend on the processing

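With DESeq2 243 genes were higher and 639 lower in *bdr1,2,3*, with only the wild-type and *bdr1,2,3* libraries in the fit 68 and 234, and at an adjusted p under 0.01 42 and 187. The counts with RLE size factors, at least 10 counts in every library and no filter on low counts stayed within 1.5 times the 123 and 384 reported. Leaving out single libraries gave 57 to 188 higher and 218 to 468 lower genes, with the lowest counts without *bdr1,2,3* replicate 2 (61 and 218), replicate 4 (57 and 233) or wild-type replicate 5 (57 and 277), and the highest without wild-type replicate 12. The 722 genes that differed from *fpa* became 1137 with DESeq2, 341 at an adjusted p under 0.01 and 391 to 595 when a single *bdr1,2,3* library was left out. The cause of these changes was not tested, other than the stricter threshold and the smaller number of libraries.

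Of the 88 called genes chosen by the rule for named genes, 48 passed in every setting apart from the threshold of 0.01, and 0 changed direction in any setting. In the fit of 2 genotypes 22 of the 88 missed the threshold, with DESeq2 1, and without 1 library 2 (wild-type replicate 12) to 34 (*bdr1,2,3* replicates 2 and 4). Of 40 other called genes named, 14 passed in every setting apart from the threshold of 0.01, 0 changed direction, 16 missed the threshold in the fit of 2 genotypes and 2 to 22 did without 1 library. No paired analysis was possible because the replicate numbers of the 3 genotypes (1, 5 and 12, 2, 4 and 7, 3, 6 and 8) share no number. Depth limits genes of a few CPM most, such as *NAC103*, *CYP79F2* and *MRN1*.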

Other observations

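Several called genes belong to functions outside the lists, and all genes in this paragraph and the next were chosen after their values were seen. *ADC2*, an arginine decarboxylase that starts polyamine synthesis, stood at 632, 835 and 1239 CPM in wild type and 428, 509 and 422 CPM in *bdr1,2,3* (log2 fold change -0.99 ± 0.21, adjusted p = 0.021). *ARGAH2*, an arginase, and *DELTA-OAT*, an ornithine aminotransferase, had log2 fold changes of -0.81 ± 0.20 and -0.81 ± 0.14 (adjusted p = 0.0436 and 0.00689), and *ARGAH2* lost its call without wild-type replicate 12 (adjusted p = 0.0699). In *ADC2* the mutant libraries were all below wild type, and *fpa* stood at 759, 713 and 584 CPM. *THI1*, which makes the thiazole ring of thiamine, was among the most abundant called transcripts, at 7088, 7656 and 13719 CPM in wild type and 4964, 4994 and 4955 CPM in *bdr1,2,3* (log2 fold change -0.93 ± 0.22, adjusted p = 0.0399).

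*TRX z*, a thioredoxin of the plastid transcription machinery, stood at 31.1, 29.4 and 48.1 CPM in wild type and 15.2, 12.1 and 8.8 CPM in *bdr1,2,3* (log2 fold change -1.57 ± 0.22, adjusted p = 0.00117). *NTRB*, a thioredoxin reductase, stood at 37.4, 28.3 and 41.8 CPM in wild type and 10.6, 13.5 and 14.2 CPM in *bdr1,2,3* (log2 fold change -1.48 ± 0.19, adjusted p = 0.000367), and *ARC6*, a plastid division protein, at 37.3, 39.3 and 36.9 CPM in wild type and 13.9, 14.1 and 10.6 CPM in *bdr1,2,3* (log2 fold change -1.55 ± 0.15, adjusted p = 4.09e-05). No library of *bdr1,2,3* reached the wild-type range in these 3 genes. Among higher genes, *GolS4*, a galactinol synthase, stood at 0.207, 0.0373 and 1.28 CPM in wild type and 3.39, 3.58 and 4.26 CPM in *bdr1,2,3* (log2 fold change 3.48 ± 0.72, adjusted p = 0.0173), and *MT1C*, a metallothionein, at 31.6, 34.5 and 33.8 CPM in wild type and 60.01, 61 and 102 CPM in *bdr1,2,3* (log2 fold change 1.16 ± 0.19, adjusted p = 0.00324). *GolS4* had few counts, and without wild-type replicate 12 its log2 fold change was 4.99 (adjusted p = 0.000168).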
